A study of Homo sapiens with 4 samples.

Results

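Integrins and laminins are the receptors and ligands by which epithelial cells hold on to a basement membrane. The comparison below covers the 37 genes that encode them in the list used here, 26 integrin chains and 11 laminin chains, out of 58884 genes counted. They were chosen by name, with earlier results of these data known, and all 37 symbols were matched to a gene identifier in the count tables. RNA sequencing counts came from HCT116, a human colorectal carcinoma cell line, in 2 RALY knockdown libraries and 2 control libraries. The RALY knockdown cells had received lentivirus with a short hairpin RNA for 72 h against RALY, an hnRNP family protein that binds RNA. The control cells are named wild type or untreated in some labels, while the treatment protocol speaks of a nonsilencing hairpin lentivirus, so what they received cannot be settled here. The sources used here do not give the number of hairpins or of cell clones, and the source name of the second library in each group gives another cell line number than the cell line entry. Whether the 2 libraries of a group are separate cultures is not labelled, and p-values therefore measure only how these libraries vary, which may be technical variation.

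An integrin is a pair of an alpha and a beta chain that spans the membrane. The alpha chain sets much of the choice of ligand. The tail of most beta chains binds talin and kindlin, which link the receptor to actin, while ITGB4 is bound by PLEC. A laminin is a trimer of an alpha, a beta and a gamma chain that is secreted and polymerises in the basement membrane. Some integrins bind laminins, some bind collagens, some bind the RGD motif of fibronectin and other ligands, and a further set is found mainly on leukocytes. In colon epithelium, ITGA6 with ITGB4 anchors cells to laminin in hemidesmosomes.

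Library totals were 16493967 and 14762755 counts in the RALY knockdown libraries and 13360007 and 16847520 counts in the control libraries. The hairpin target RALY had 634 and 522 counts in the RALY knockdown libraries, against 1903 and 2132 in the control libraries. The 7 epithelial markers examined (EPCAM, CDH1, KRT8, KRT18, KRT19, CLDN4 and ELF3) had at least 511 counts in every library, and none was called. Levels are given as CPM, counts per 1e+06 of the library total scaled with TMM factors. In bulk RNA, fewer cells of a type and less RNA per cell cannot be told apart. A gene was called when its Benjamini-Hochberg adjusted p over all 19686 tested genes was under 0.05 in edgeR's quasi-likelihood test, and fold changes are RALY knockdown over control on the log2 scale.

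Most of the integrin and laminin genes with a change rose after RALY knockdown, and the 3 that fell were all integrin beta chains. Of the 37 genes, 29 passed the filter on low counts. Of these, 11 rose and 3 fell, 14 in all or 48.3%. Over all tested genes 25.6% were called, 12.5% as higher and 13.1% as lower. The share of risers in the set was above that background, and that of fallers was close to it. This is a description, since the set was chosen with earlier results of these data known. Of the 29 genes, 23 had a mean of at least 5 CPM, and of those 9 rose and 3 fell. No background of matched level was computed. The libraries of the groups did not overlap in 22 of the 29 genes, where 63.6% of all tested genes did not overlap. The median log2 fold change was 0.37 over the 29 genes and 0.01 over all tested genes. Without any filter all 37 were tested, and 13 were called as higher and 3 as lower. The median of the 29 is a description, since a gene that is low in control could pass the filter through the RALY knockdown libraries. By chain type, 6 of 14 tested alpha chains rose and none fell, 1 of 7 tested beta chains rose and 3 fell, and 4 of 8 tested laminin chains rose and none fell.

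Calls in this set depended on both controls being present. Without control replicate 1, 2 of the 14 calls were kept (ITGB4 and LAMA2), and without control replicate 2, 3 were kept (ITGB1, ITGB4 and LAMA2). With a control left out, only the RALY knockdown pair has replicates. A chi-square of counts over its degrees of freedom was 10.4 in the RALY knockdown pair and 5.55 in the control pair, and its part in the lost calls was not tested. The number of calls over all genes moved likewise, to 1008 and 984 without control replicates 1 and 2, against 5048 with all libraries. No called integrin or laminin gene changed direction in any setting tried.

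**Figure D1:**
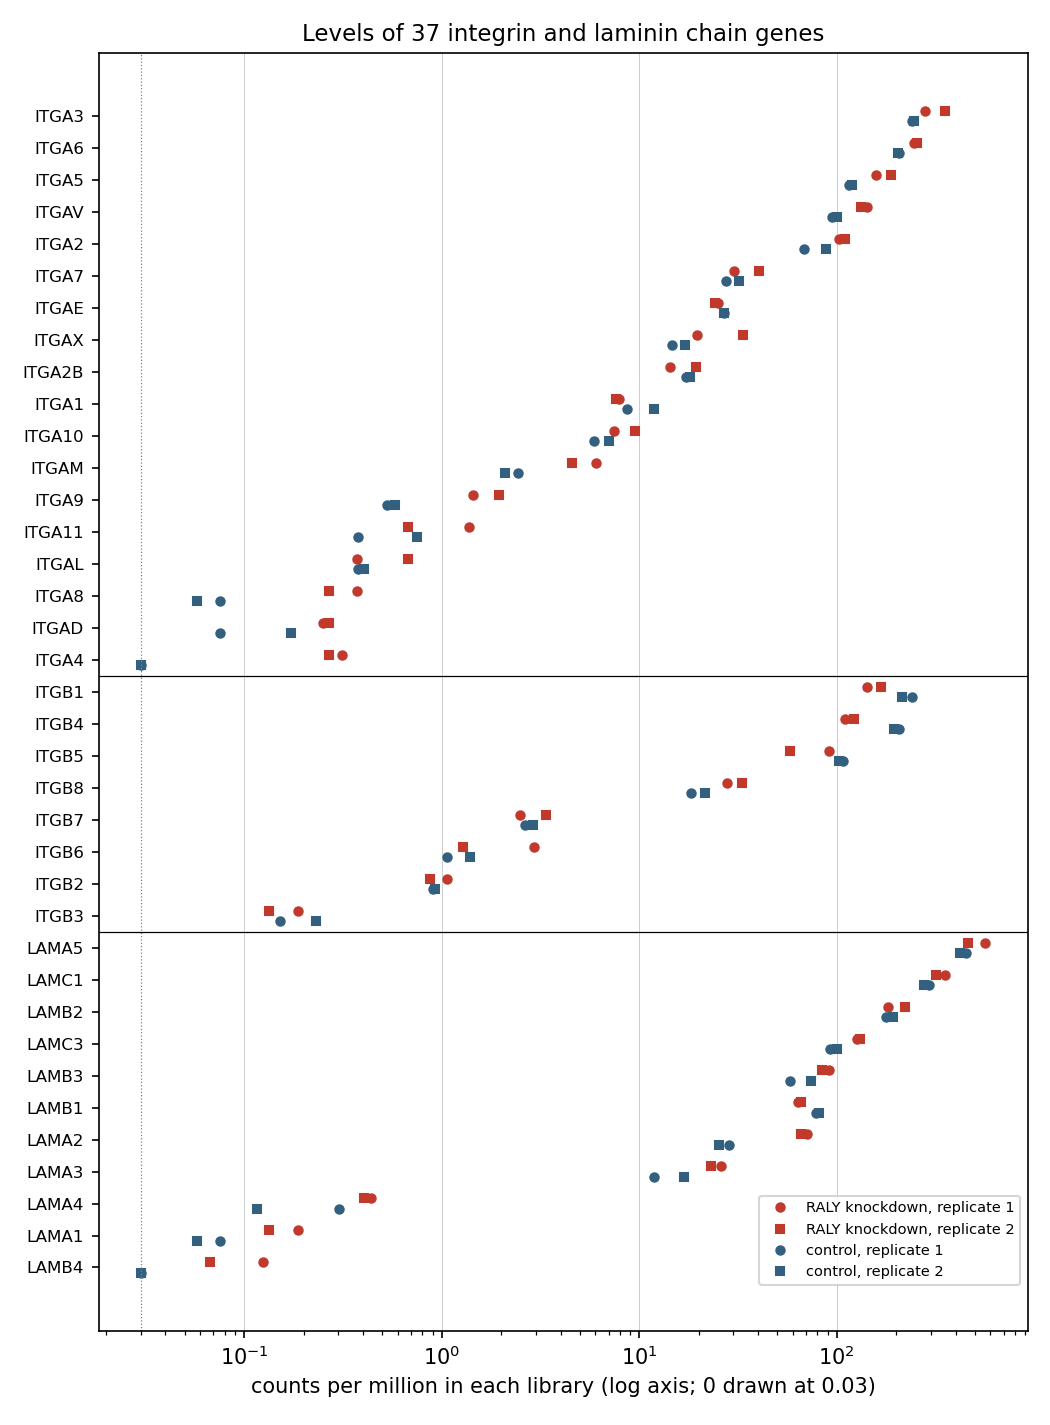
Level of each of the 37 genes in each library, in CPM on a log axis, with values of 0 drawn at 0.03. Red points are the RALY knockdown libraries and blue points the control libraries, circles replicate 1 and squares replicate 2. The lines separate integrin alpha chains, integrin beta chains and laminin chains. In ITGB1, ITGB4 and ITGB5 the red points lie left of the blue points, and in LAMA2, ITGA9 and ITGAM they lie to the right.

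Promoter sequences of 5 genes are shown first, because they carry the match to an AP-1 or TEAD motif among the genes that moved. AP-1 is the dimer of FOS and JUN proteins, and TEAD factors are the DNA-binding partners of YAP. RefSeq promoters (GRCh38.p14, 250 bases before to 50 after an annotated transcript start) were found for 26 of the 37 genes, with 33 entries in all. The AP-1 motif TGANTCA, which reads the same on both strands, was in the entries of 3 genes, ITGA5, LAMA3 and LAMB3, each of which rose. That is 9.09% of the 33 entries, against 7.71% of all 35116 promoters. The TEAD motif GGAATG, or CATTCC on the other strand, was in entries of ITGA5 and LAMA2, which rose, ITGB1, which fell, and ITGA10, which was not called. That is 12.1% of entries against 14% of all promoters. Capitals mark these matches, which are letters in a window and not evidence of binding.
ITGA5, chr12:54419217-54419516, minus strand: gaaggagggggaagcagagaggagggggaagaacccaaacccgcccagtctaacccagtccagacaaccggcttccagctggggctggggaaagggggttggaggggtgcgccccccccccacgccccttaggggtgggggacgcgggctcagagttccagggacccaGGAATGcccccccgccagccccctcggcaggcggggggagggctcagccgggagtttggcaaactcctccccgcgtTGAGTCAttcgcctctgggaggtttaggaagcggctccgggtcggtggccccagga
LAMA3, chr18:23872770-23873069, plus strand: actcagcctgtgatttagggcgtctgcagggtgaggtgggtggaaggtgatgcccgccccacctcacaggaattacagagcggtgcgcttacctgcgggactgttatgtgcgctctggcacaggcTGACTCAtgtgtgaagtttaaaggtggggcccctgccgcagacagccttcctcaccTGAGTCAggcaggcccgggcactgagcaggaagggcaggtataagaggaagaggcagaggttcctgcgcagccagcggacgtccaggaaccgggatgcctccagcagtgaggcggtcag
LAMB3, chr1:209651325-209651624, minus strand: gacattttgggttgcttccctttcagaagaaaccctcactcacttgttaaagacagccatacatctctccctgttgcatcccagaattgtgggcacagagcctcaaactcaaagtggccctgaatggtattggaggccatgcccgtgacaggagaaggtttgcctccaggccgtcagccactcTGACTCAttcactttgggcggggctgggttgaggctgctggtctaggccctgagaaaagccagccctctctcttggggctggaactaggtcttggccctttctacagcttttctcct
LAMA2, chr6:128882888-128883187, plus strand: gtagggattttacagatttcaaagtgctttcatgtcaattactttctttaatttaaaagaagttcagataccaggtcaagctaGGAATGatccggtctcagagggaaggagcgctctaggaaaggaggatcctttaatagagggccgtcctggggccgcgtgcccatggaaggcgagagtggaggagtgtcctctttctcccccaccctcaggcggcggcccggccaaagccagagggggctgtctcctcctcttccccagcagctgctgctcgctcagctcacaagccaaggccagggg
ITGB1, chr10:32958181-32958480, minus strand: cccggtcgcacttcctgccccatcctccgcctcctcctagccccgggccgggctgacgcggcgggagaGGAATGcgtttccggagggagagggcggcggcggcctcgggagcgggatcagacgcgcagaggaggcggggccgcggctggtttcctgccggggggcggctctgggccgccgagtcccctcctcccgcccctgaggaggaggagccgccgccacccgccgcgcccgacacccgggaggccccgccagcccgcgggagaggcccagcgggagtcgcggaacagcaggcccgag

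In the ITGA5 promoter the AP-1 match began at position -6 and the TEAD match at position -82 relative to the transcript start of the window. LAMA3 held AP-1 matches at positions -125 and -69, and LAMB3 held one at position -67. The LAMA3 and ITGB1 windows belong to internal starts, 184 and 47.6 kb inside the outer start of the gene in the count tables, and the LAMB3 window lies 1.05 kb inside; gene counts do not tell which start was used. Of the other short motifs searched, the SMAD element CAGACA was in entries of 3 genes (ITGA5, LAMA3 and LAMA4), the TATA box TATAAA in those of 2 (ITGA6 and ITGB1), and the E-box CACGTG in those of 1 (ITGA6). The SP1 motif GGGCGG was in 57.6% of the entries and 45% of all promoters. Both strands were read for each. The SMAD element was in 9.09% of the 33 entries and 16.9% of all promoters. The TATA box was in 6.06% of the entries and 11.5% of all promoters, and the E-box in 3.03% and 7.26%.

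Among the laminin-binding integrins, the hemidesmosome chain ITGB4 fell, while its partner ITGA6 was not called. ITGB4 (ENSG00000132470, GRCh38 chromosome 17, positions 75721328 to 75757818) had 1758 and 1824 counts in the RALY knockdown libraries, against 2729 and 3378 in the control libraries. Its level was 116 ± 9.17 CPM in RALY knockdown cells and 201 ± 8.08 CPM in control cells (SD, n = 2 each). This was the largest fall of the 29 tested genes (log2 fold change -0.79, SE 0.117, edgeR adjusted p = 0.000641), and the call was kept in every setting tried. ITGA6, the alpha chain of the hemidesmosome receptor, had 247 and 255 CPM in the RALY knockdown libraries and 206 and 205 CPM in the control libraries. Both RALY knockdown values lay above the control values, and the log2 fold change of 0.29 was not called (SE 0.117, edgeR adjusted p = 0.0927).

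ITGA3, whose product pairs with ITGB1 to bind laminin, had 279 and 352 CPM in the RALY knockdown libraries, against 241 and 247 CPM in the control libraries. Its log2 fold change was 0.37 (SE 0.139, edgeR adjusted p = 0.0703), and it was called as higher without RALY knockdown replicate 1 (0.51, edgeR adjusted p = 0.00521), without a filter on low counts (0.34, edgeR adjusted p = 0.0494) and by DESeq2 (0.36, DESeq2 adjusted p = 0.0358). ITGA7, a laminin receptor chain best known from muscle, had 30.3 and 40.5 CPM in the RALY knockdown libraries and 27.6 and 32 CPM in the control libraries. The ITGA7 groups overlapped, with a log2 fold change of 0.25 (SE 0.17, edgeR adjusted p = 0.314), and it was called only without RALY knockdown replicate 1 (0.42, edgeR adjusted p = 0.0424).

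ITGB1, the beta chain that most of the alpha chains here can pair with, was lower in both RALY knockdown libraries. The gene (ENSG00000150093, chromosome 10, positions 32900318 to 33005792) had 2282 and 2497 counts in the RALY knockdown libraries, against 3187 and 3705 in the control libraries, or 155 ± 18.1 CPM in RALY knockdown cells and 228 ± 19.3 CPM in control cells (SD, n = 2 each). The log2 fold change was -0.55 (SE 0.128, edgeR adjusted p = 0.00822). The call was lost without control replicate 1 (log2 fold change -0.50, edgeR adjusted p = 0.0835). ITGB1 has a pseudogene copy, ITGB1P1 on chromosome 19, with 162 and 190 counts in the RALY knockdown libraries, against 248 and 335 in the control libraries. The sources used here do not say how reads that match both were assigned. The sum of the copies was 152 and 181 CPM in the RALY knockdown libraries and 260 and 234 CPM in the control libraries, a log2 ratio of -0.57.

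As an alternative, a ceiling of 2 counts per base of the canonical transcript was assumed. Whether the counts of abundant genes have such a ceiling was not tested. The mean count as a share of that ceiling over the canonical transcript was 39.1% for ITGB1, 43.9% for ITGA3, 20.5% for ITGB4 and 31.9% for LAMA5. With counts corrected for such a ceiling, the log2 fold changes were -0.72 for ITGB1, 0.50 for ITGA3, -0.90 for ITGB4 and 0.29 for LAMA5, with no change of call.

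Among the collagen receptors, which pair with ITGB1, ITGA2 rose and ITGA1, ITGA10 and ITGA11 were not called. ITGA2 (chromosome 5, positions 52989340 to 53094779) had 103 and 110 CPM in the RALY knockdown libraries, against 68.3 and 88.5 CPM in the control libraries. The control libraries lay apart from each other, and both were below the RALY knockdown libraries (log2 fold change 0.44, SE 0.132, edgeR adjusted p = 0.0282). It was not called without control replicate 1 (0.23, edgeR adjusted p = 0.362), without control replicate 2 (0.63, edgeR adjusted p = 0.0537) or with plain totals (edgeR adjusted p = 0.0604). ITGA1, its neighbour on chromosome 5, had 7.92 and 7.67 CPM in the RALY knockdown libraries and 8.64 and 11.9 CPM in the control libraries (log2 fold change -0.40, SE 0.238, edgeR adjusted p = 0.238). ITGA10 and ITGA11 gave 0.39 and 0.81 on the log2 scale (edgeR adjusted p = 0.279 and 0.29), and no library had more than 22 counts of ITGA11.

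ITGA5 and ITGAV, alpha chains of receptors for the RGD motif of fibronectin and other ligands, both rose. ITGA5 (ENSG00000161638, chromosome 12, positions 54395261 to 54419266), whose product pairs with ITGB1 as the classical fibronectin receptor, had 158 and 189 CPM in the RALY knockdown libraries, against 116 and 120 CPM in the control libraries. The groups did not overlap (log2 fold change 0.56, SE 0.121, edgeR adjusted p = 0.00593). ITGAV (chromosome 2, positions 186590056 to 186680901) had 143 and 133 CPM in the RALY knockdown libraries, against 94.7 and 100 CPM in the control libraries, again without overlap (log2 fold change 0.50, SE 0.11, edgeR adjusted p = 0.00623). Without control replicate 1 or 2 neither was called, at 0.49 and 0.57 for ITGA5 (edgeR adjusted p = 0.103 and 0.0795) and 0.42 and 0.53 for ITGAV (edgeR adjusted p = 0.109 and 0.0688). ITGA2B, the platelet fibrinogen receptor chain, had 14.4 and 19.4 CPM in the RALY knockdown libraries and 17.3 and 18 CPM in the control libraries, where the groups overlapped (log2 fold change -0.06, SE 0.201, edgeR adjusted p = 0.855). Of 4 platelet markers, 3 had no count in any library and the other at most 1.

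The beta chains that pair with ITGAV moved in both directions. ITGB8, whose product with ITGAV binds latent TGF-beta, had 27.7 and 33.2 CPM in the RALY knockdown libraries, against 18.3 and 21.6 CPM in the control libraries (log2 fold change 0.61, SE 0.173, edgeR adjusted p = 0.0225). ITGB5, a vitronectin receptor chain with ITGAV, had 91.3 and 58.4 CPM in the RALY knockdown libraries, against 108 and 103 CPM in the control libraries (log2 fold change -0.49, SE 0.168, edgeR adjusted p = 0.0476). The fall of ITGB5 was mostly that of RALY knockdown replicate 2, without which it was -0.21 and not called (edgeR adjusted p = 0.254). It was not called with DESeq2 size factors (edgeR adjusted p = 0.0651) or ceiling-corrected counts (edgeR adjusted p = 0.0662) either. The call of ITGB8 was likewise lost without that library (0.46, edgeR adjusted p = 0.0549), and neither was called without either control (edgeR adjusted p = 0.28 and 0.123 for ITGB8, 0.26 and 0.229 for ITGB5). ITGB6, an epithelial partner of ITGAV, had 47 and 19 counts in the RALY knockdown libraries and 14 and 24 in the control libraries. It was not called (log2 fold change 0.77, edgeR adjusted p = 0.225), but was without RALY knockdown replicate 2 (1.23, edgeR adjusted p = 0.0194). ITGB3, the beta chain of platelet and endothelial integrins, had 2 to 4 counts in every library and was not tested.

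**Figure D2:**
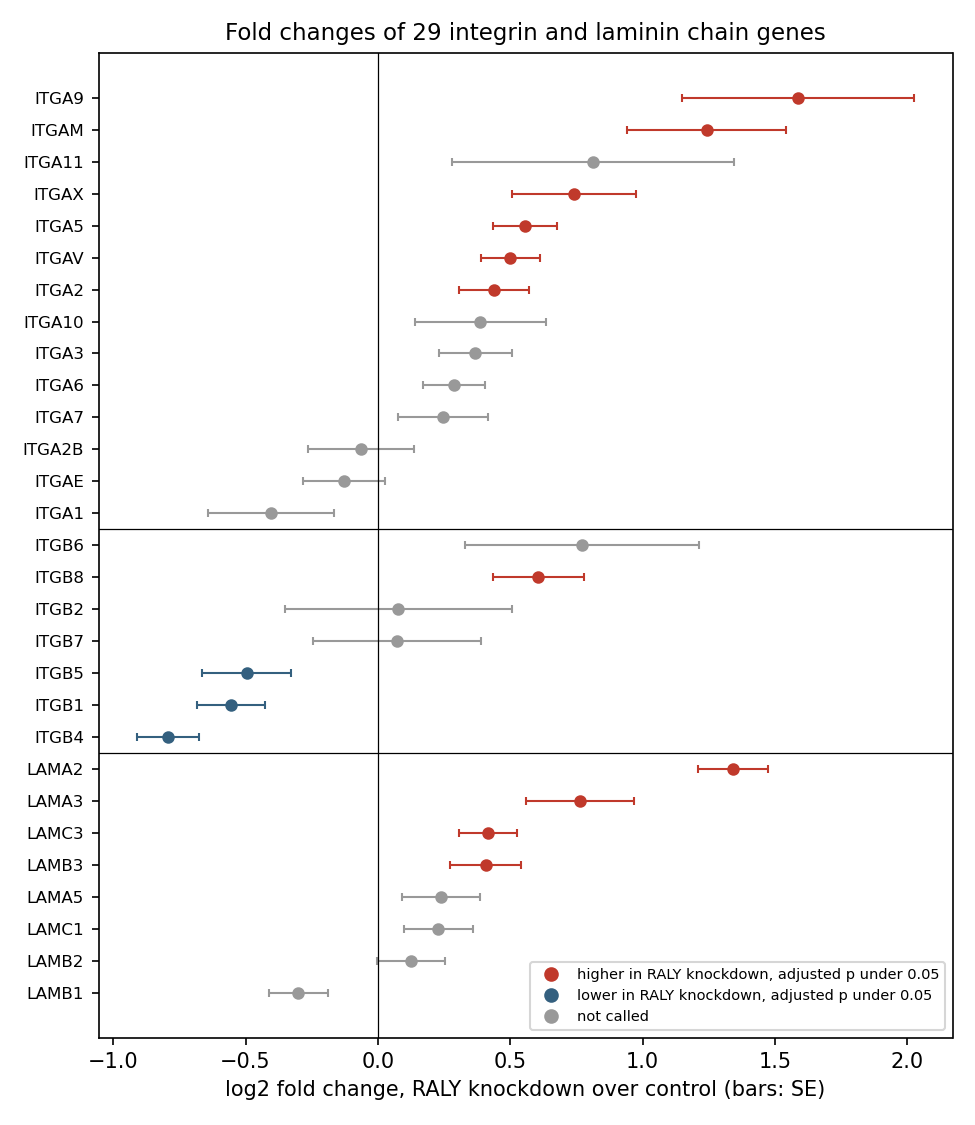
Log2 fold change, RALY knockdown over control, with its SE, of the 29 genes that passed the filter on low counts. Red points were called as higher, blue as lower and grey were not called. The 3 blue points are the beta chains ITGB4, ITGB1 and ITGB5, and the red points with the highest values are ITGA9, LAMA2 and ITGAM.

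The beta chains ITGB1, ITGB4 and ITGB5 were called as lower and no alpha chain was. After these calls were seen, the balance of the integrin chains was examined per length, as CPM per kilobase of the gene length in the count tables. Of the alpha chains that were not called, ITGA1 and ITGAE were lower in both RALY knockdown libraries than in either control library. The 18 alpha chains summed to 134 and 151 CPM per kilobase in the RALY knockdown libraries, against 107 and 113 in the control libraries. The 8 beta chains summed to 57.0 and 58.4 CPM per kilobase in the RALY knockdown libraries, against 89.5 and 82.8 in the control libraries. The ratio of the alpha sum to the beta sum was 2.36 and 2.59 in the RALY knockdown libraries and 1.19 and 1.36 in the control libraries. Its mean was 2.47 ± 0.165 in RALY knockdown cells and 1.28 ± 0.118 in control cells (SD, n = 2 each), a log2 difference of 0.96. ITGB1, ITGB4 and ITGB5 made up most of the beta sum in every library, so this ratio restates their calls in part. An exact permutation test of 2 against 2 libraries cannot give a two-sided p under 0.333, so no test is given for this ratio. Whether protein levels of the chains follow was not measured.

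Ratios between partner chains were computed for 17 alpha-beta pairs, those known to pair for which both chains were tested. The ratio was higher in RALY knockdown cells in each of the 12 pairs with ITGB1, ITGB4 or ITGB5, and these chains were the ones called as lower, so that direction restates their fall in part. ITGA6 over ITGB4 was 2.27 and 2.09 in the RALY knockdown libraries and 1.0 and 1.06 in the control libraries. ITGA5 over ITGB1 was 0.905 and 0.915 in the RALY knockdown libraries and 0.391 and 0.456 in the control libraries. ITGA1 over ITGB1 was the one of these 12 in which the groups overlapped. Of the 12 pairs, 10 share ITGB1, and 63.6% of all tested genes did not overlap in CPM. ITGA11 over ITGB1 was apart on few counts of ITGA11, whose own levels overlapped. It had 22 and 10 counts in the RALY knockdown libraries and 5 and 13 in the control libraries.

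The 5 pairs with other beta chains did not share that direction. ITGAV over ITGB8, whose chains both rose, was 9.53 and 7.38 in the RALY knockdown libraries and 9.56 and 8.55 in the control libraries, which overlapped. ITGAV over ITGB6 and ITGAE over ITGB7 also overlapped, with log2 differences of -0.17 and -0.19. ITGAM and ITGAX over ITGB2 were higher in both RALY knockdown libraries than in the control libraries, with log2 differences of 1.16 and 0.63, on no more than 17 counts of ITGB2 in any library. The pairs share chains and are not independent of each other, and no test is given for them. LAMA5 over LAMC1, chains of the same epithelial laminin trimers, was 0.945 and 0.861 in the RALY knockdown libraries and 0.906 and 0.893 in the control libraries, where the groups overlapped.

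**Figure D3:**
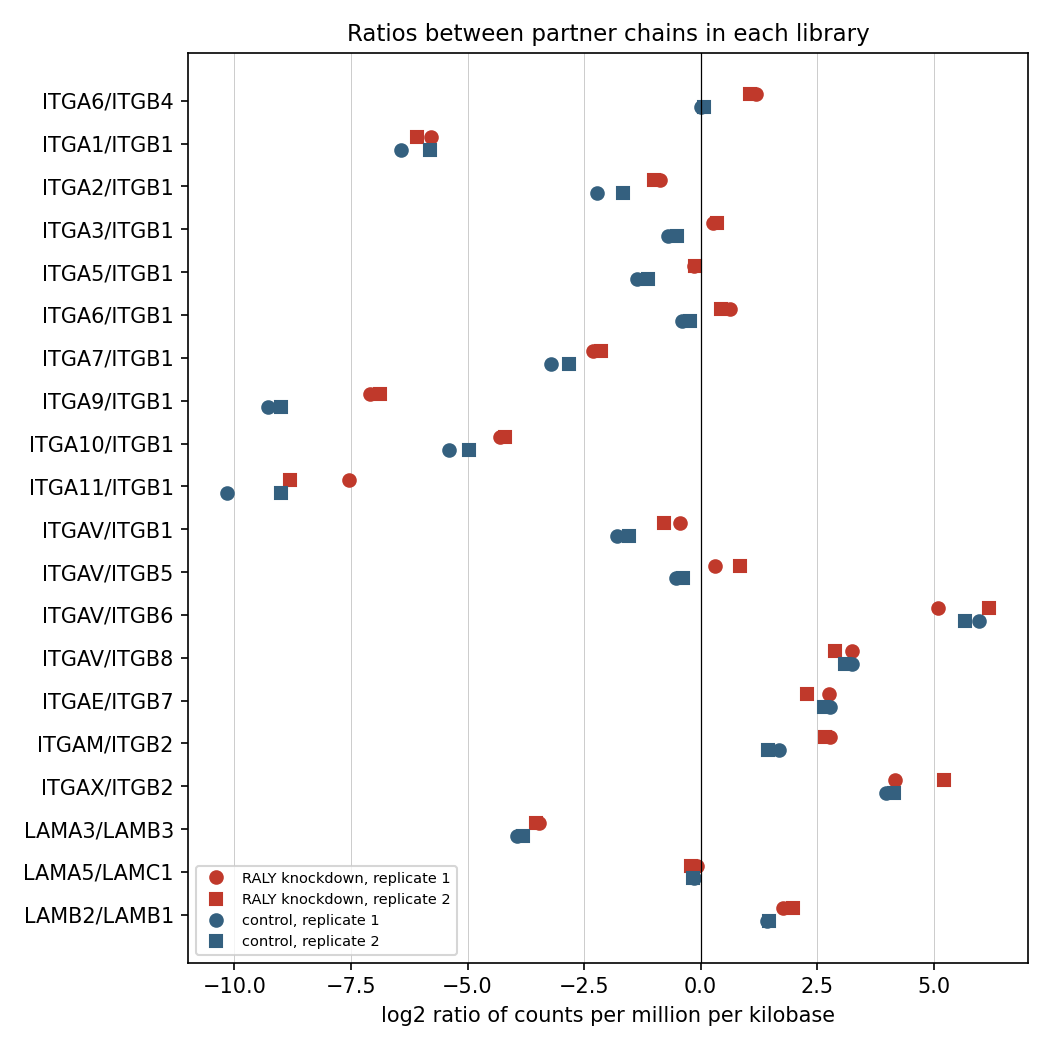
Ratio of the levels of partner chains in each library, as the log2 ratio of CPM per kilobase. Red points are RALY knockdown libraries and blue points control libraries, circles replicate 1 and squares replicate 2. The red points lie right of the blue points in 11 of the 12 pairs with ITGB1, ITGB4 or ITGB5, chains called as lower. Of these 12 pairs, 10 share ITGB1, and 63.6% of all tested genes did not overlap in CPM. The groups overlap for ITGA1 over ITGB1, ITGAV over ITGB6 and ITGB8, ITGAE over ITGB7 and LAMA5 over LAMC1.

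The order of levels also differed between the groups. Per kilobase, ITGB1 ranked 6 of 37 in RALY knockdown cells at 25.8 and 1 of 37 in control cells at 37.9 CPM per kilobase, and ITGB4 ranked 9 in RALY knockdown cells and 5 in control cells. LAMC1 was highest in RALY knockdown cells with 39.7 CPM per kilobase, followed by ITGA6 with 37.4 and LAMA5 with 36.0, and these differences are smaller than the larger SD of each pair compared with LAMC1. In control cells LAMC1, ITGA6 and LAMA5 had 33.9, 30.6 and 30.5 CPM per kilobase. With canonical transcript lengths ITGA3 came first in RALY knockdown cells, ITGB1 ranked 5 there, and ITGB1 came first in control cells.

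Among the integrin chains found mainly on leukocytes, ITGAM and ITGAX rose. Per kilobase, ITGAE and ITGAX ranked 18 and 17 of 37 in RALY knockdown cells and 16 and 19 in control cells. The other chains of this kind ranked lower. ITGAM (chromosome 16, positions 31259967 to 31332892), which pairs with ITGB2 on myeloid cells, had 97 and 68 counts in the RALY knockdown libraries, against 32 and 36 in the control libraries (log2 fold change 1.24, SE 0.302, edgeR adjusted p = 0.0106). Its neighbour ITGAX (chromosome 16, positions 31355134 to 31382997), another partner of ITGB2, had 316 and 497 counts in the RALY knockdown libraries, against 194 and 294 in the control libraries (log2 fold change 0.74, SE 0.234, edgeR adjusted p = 0.0352). The beta chain ITGB2 itself had 17 and 13 counts in the RALY knockdown libraries and 12 and 16 in the control libraries, where the groups overlapped (log2 fold change 0.08, edgeR adjusted p = 0.921). ITGAX lost its call without RALY knockdown replicate 2 (0.31, edgeR adjusted p = 0.302), and both genes lost theirs without either control (edgeR adjusted p = 0.114 and 0.158 for ITGAM, 0.327 and 0.202 for ITGAX). ITGAX also lost it with DESeq2 size factors and with plain totals (edgeR adjusted p = 0.0521 and 0.0733), and with ceiling-corrected counts (edgeR adjusted p = 0.0575).

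The 8 leukocyte markers examined summed to 26.3 and 31.5 CPM in the RALY knockdown libraries and 28.2 and 31.9 CPM in the control libraries, most of it CORO1A and LCP1. None was called by edgeR, and 2 had an unadjusted p under 0.05, both with higher values in RALY knockdown cells. The pan-leukocyte gene PTPRC had 9 and 3 counts in the RALY knockdown libraries and 1 and 4 in the control libraries, and CD3E had at most 2 in any library. The part of such cells in the rise of ITGAM and ITGAX was not tested.

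ITGA9, whose product binds tenascin-C with ITGB1, had 23 and 29 counts in the RALY knockdown libraries, against 7 and 10 in the control libraries (log2 fold change 1.59, SE 0.438, edgeR adjusted p = 0.0193). This was the largest fold change of the set, on few counts, and it was not called by DESeq2 (1.60, DESeq2 adjusted p = 0.172), without RALY knockdown replicate 2 (1.35, edgeR adjusted p = 0.0812) or without control replicate 1 or 2 (1.5 and 1.64, edgeR adjusted p = 0.192 and 0.182). The antisense gene ITGA9-AS1, which shares 6.47% of the exon bases of ITGA9, moved the other way, with 14 and 18 counts in the RALY knockdown libraries, against 38 and 36 in the control libraries (log2 fold change -1.24, edgeR adjusted p = 0.0336). It is no member of the set and was singled out after its values were seen. ITGAE, the partner of ITGB7 that binds E-cadherin, had 25.1 and 24.3 CPM in the RALY knockdown libraries and 27.1 and 27.0 CPM in the control libraries (log2 fold change -0.13, edgeR adjusted p = 0.587). ITGB7 was not called (log2 fold change 0.07, edgeR adjusted p = 0.896) and shares 42.3% of its exon bases with other genes, chiefly ZNF740, so its counts are uncertain.

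Among the laminin alpha chains, LAMA2 and LAMA3 rose and LAMA5, the most abundant, was not called. LAMA2 (ENSG00000196569, chromosome 6, positions 128883141 to 129516569), the alpha chain best known from muscle basement membranes, had 1135 and 979 counts in the RALY knockdown libraries, against 376 and 440 in the control libraries. Its level was 68.3 ± 3.52 CPM in RALY knockdown cells and 27.0 ± 2.15 CPM in control cells (SD, n = 2 each), a rise of 2.54-fold (log2 fold change 1.34, SE 0.133, edgeR adjusted p = 5.72e-05) that was called in every setting. Fibroblast markers, 5 genes of which PDGFRB made up most, summed to 22.4 and 21.7 CPM in the RALY knockdown libraries and 15.6 and 16.5 CPM in the control libraries; DCN, LUM, COL1A2 and COL3A1 had at most 13 counts in any library. Of 4 markers of HEK293T, the line commonly used to package lentivirus, NEFH rose, with 44 and 46 counts in the RALY knockdown libraries, against 6 and 9 in the control libraries (log2 fold change 2.55, edgeR adjusted p = 0.00097). The 4 summed to 87.5 and 98.2 CPM in the RALY knockdown libraries and 96.8 and 81.9 CPM in the control libraries. Most of that sum was CRABP2, which was not called (log2 fold change 0.01, edgeR adjusted p = 0.959). NEFM had 2 and 8 counts in the RALY knockdown libraries, against 0 and 1 in the control libraries. LHX1 had 1 and 2 counts in the RALY knockdown libraries, against 0 and 0 in the control libraries. Neither NEFM nor LHX1 was tested. The part of either marker list in the rise of LAMA2 was not tested. LAMA3, the alpha chain of the laminin that hemidesmosomes bind, had 416 and 343 counts in the RALY knockdown libraries, against 157 and 291 in the control libraries (log2 fold change 0.76, SE 0.204, edgeR adjusted p = 0.0164). LAMA3 was not called when either control was left out, at 0.50 without replicate 1 and 1.03 without replicate 2 (edgeR adjusted p = 0.262 and 0.0678). LAMA5, the main alpha chain of adult epithelial basement membranes, had 566 and 462 CPM in the RALY knockdown libraries and 452 and 419 CPM in the control libraries (log2 fold change 0.24, SE 0.149, edgeR adjusted p = 0.266).

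The make-up of the alpha chains thus differed between the groups. Per kilobase, LAMA5 made up 82.1% and 80.2% of the summed laminin alpha chains in the RALY knockdown libraries and 89.8% and 89.0% in the control libraries. LAMA2 made up 14.2% and 15.8% in the RALY knockdown libraries and 7.81% and 7.46% in the control libraries. Neither share overlapped between the groups, and 63.6% of all tested genes did not overlap in CPM. The shares are parts of the same sum and are not separate results. The mean level of LAMA5 itself was not lower, at 36.0 CPM per kilobase in RALY knockdown cells and 30.5 in control cells. LAMA1 and LAMA4, embryonic and vascular alpha chains, had at most 7 counts in any library.

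Of the beta and gamma chains, LAMB3 and LAMC3 rose. LAMB3, which assembles with LAMA3, had 91.2 and 84.6 CPM in the RALY knockdown libraries, against 57.8 and 74.5 CPM in the control libraries (log2 fold change 0.41, SE 0.133, edgeR adjusted p = 0.0407). Its call was lost with DESeq2 size factors and plain totals (edgeR adjusted p = 0.0533 and 0.0772), by DESeq2 (DESeq2 adjusted p = 0.0595) and without each control in turn (0.20 and 0.59, edgeR adjusted p = 0.451 and 0.0697). LAMC3, a gamma chain, had 127 and 131 CPM in the RALY knockdown libraries, against 92.7 and 100 CPM in the control libraries, which lay apart (log2 fold change 0.42, SE 0.109, edgeR adjusted p = 0.0154). It was not called without control replicate 1 or 2 (0.32 and 0.46, edgeR adjusted p = 0.188 and 0.0892).

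The widely used chains LAMB1, LAMB2 and LAMC1 were not called. LAMB1 had 63.6 and 66.2 CPM in the RALY knockdown libraries and 78.2 and 81.4 CPM in the control libraries (log2 fold change -0.30, SE 0.112, edgeR adjusted p = 0.0676). LAMB2 had 183 and 221 CPM in the RALY knockdown libraries and 178 and 193 CPM in the control libraries, which overlapped (log2 fold change 0.12, edgeR adjusted p = 0.522). LAMC1, the gamma chain of most laminins, had 354 and 317 CPM in the RALY knockdown libraries and 295 and 278 CPM in the control libraries (log2 fold change 0.23, SE 0.129, edgeR adjusted p = 0.218). LAMB2 over LAMB1 per kilobase was 3.38 and 3.93 in the RALY knockdown libraries and 2.67 and 2.78 in the control libraries.

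The 8 genes that did not pass the filter, ITGA4, ITGA8, ITGAD, ITGAL, ITGB3, LAMA1, LAMA4 and LAMB4, had 0 to 10 counts in each library. ITGA4, which pairs with ITGB1 or ITGB7 on lymphocytes, had 5 and 4 counts in the RALY knockdown libraries and none in the control libraries, where 3 counts, the limit that a count of 0 allows, correspond to 0.225 and 0.178 CPM of the total. It shares 14.8% of its exon bases with other genes, chiefly CERKL. 

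Genes that work with integrins and laminins were taken from 6 lists, and 25.6% of all tested genes were called. The lists were chosen with earlier results of these data known, so their shares and medians are descriptions and no independent support. Of 9 tested basement membrane partners and other laminin receptors, 4 rose and none fell (44.4% called), with a median log2 fold change of 0.34. The heparan sulfate proteoglycan AGRN, which binds laminin, had 301 ± 18.5 CPM in RALY knockdown cells and 200 ± 9.70 CPM in control cells (SD, n = 2 each; log2 fold change 0.59, edgeR adjusted p = 0.00492). SDC1 and SDC4, syndecans that act as coreceptors, and SPARC, a matricellular protein, rose by 0.43, 0.42 and 0.49. NID1 and NID2, the nidogens that link laminin to collagen, had at most 12 counts in any library. Without control replicate 1 none of the 4 was called (edgeR adjusted p = 0.0683 for AGRN and 0.114 to 0.245 for the others). AGRN was kept without control replicate 2 (edgeR adjusted p = 0.0459) and the other 3 were not (0.116 to 0.195), and SPARC was also lost without RALY knockdown replicate 2 (0.29, edgeR adjusted p = 0.0987).

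Of 10 tested integrin ligands other than laminins, 5 rose and 1 fell (60.0% called), with a median log2 fold change of 0.69. This list too was chosen with earlier results of these data known, so its share is a description. FN1, which encodes fibronectin, had 127 ± 2.51 CPM in RALY knockdown cells and 67.3 ± 8.94 CPM in control cells (SD, n = 2 each; log2 fold change 0.91, SE 0.121, edgeR adjusted p = 0.000326). TNC, which encodes the ITGA9 ligand tenascin-C, had 261 and 221 counts in the RALY knockdown libraries, against 30 and 83 in the control libraries (log2 fold change 2.11, edgeR adjusted p = 0.000535); it falls outside the rule for named genes and was chosen after its values were seen. THBS1, CCN1 and CCN2 completed the 5 that rose. SPP1, which encodes osteopontin, fell (log2 fold change -0.62, edgeR adjusted p = 0.0297), and was not called without control replicate 1 or without control replicate 2 (-0.76 and -0.52, edgeR adjusted p = 0.124 and 0.264).

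Of 31 focal adhesion adaptors, kinases and actin linkers, 6 rose and 4 fell, with a median log2 fold change of 0.11. The share called, 32.3%, was near that of all tested genes. TGFB1I1, a paxillin family adaptor also called Hic-5, had 42.7 ± 1.17 CPM in RALY knockdown cells and 17.5 ± 1.15 CPM in control cells (SD, n = 2 each; log2 fold change 1.29, edgeR adjusted p = 0.00016). PARVB, a parvin that joins the integrin-linked kinase complex to actin, had 20.9 ± 7.41 CPM in RALY knockdown cells and 62.8 ± 4.6 CPM in control cells (SD, n = 2 each; log2 fold change -1.58, edgeR adjusted p = 0.000236). The kinase gene PTK2B fell by 0.94, and the tensin genes TNS1 and TNS4 rose by 0.61 and 0.36. PARVG had 16 and 31 counts in the RALY knockdown libraries, against 9 and 3 in the control libraries, and shares 38.5% of its exon bases with other genes. The remaining called genes, named after their values were seen, were FERMT2, LIMS1, TLN2 and FBLIM1. The kindlin gene FERMT2 (0.33, edgeR adjusted p = 0.0441) and LIMS1 (0.32, edgeR adjusted p = 0.0476) rose. The talin gene TLN2 (-0.64, edgeR adjusted p = 0.00609) and FBLIM1 (-0.83, edgeR adjusted p = 0.0164) fell. Values of these 4 genes with a library left out are not reported here. TLN1, the more abundant talin gene, was not called (-0.03, edgeR adjusted p = 0.883), and TLN2 had 38.6 ± 1.71 CPM in RALY knockdown cells and 60.0 ± 9.24 CPM in control cells (SD, n = 2 each). Calls of PTK2B, TNS1, TNS4 and PARVG were lost without control replicate 1 (-0.99, 0.54, 0.37 and 3.05, edgeR adjusted p = 0.0844, 0.194, 0.128 and 0.0948) and without control replicate 2 (-0.94, 0.62, 0.30 and 1.15, edgeR adjusted p = 0.0962, 0.154, 0.181 and 0.373). TNS1 was also lost without RALY knockdown replicate 1 (0.35, edgeR adjusted p = 0.0851), TNS4 without either RALY knockdown library (edgeR adjusted p = 0.0506 and 0.0907), and PARVG without RALY knockdown replicate 2 (1.30, edgeR adjusted p = 0.172) and by DESeq2 (DESeq2 adjusted p = 0.168).

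**Figure D4:**
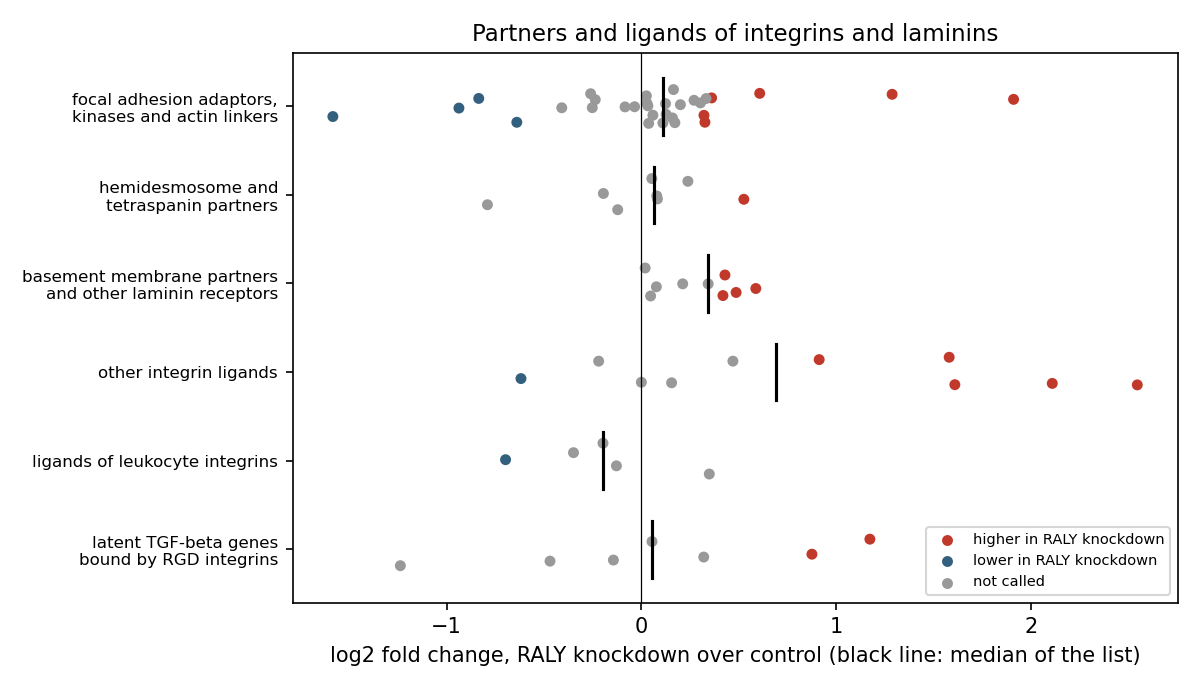
Log2 fold change, RALY knockdown over control, of the tested genes in 6 lists of partners and ligands. Each point is a gene, red where called as higher, blue where called as lower and grey where not called, with vertical scatter for legibility, and the black line is the median of the list. The integrin ligands have the highest median, 0.69, and the ligands of leukocyte integrins the lowest, -0.20.

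Of 8 hemidesmosome and tetraspanin partners, 1 rose (12.5% called). DST, a plakin whose epithelial isoform sits in hemidesmosomes, had 343 ± 80.6 CPM in RALY knockdown cells and 238 ± 8.08 CPM in control cells (SD, n = 2 each; log2 fold change 0.53, edgeR adjusted p = 0.028). Without RALY knockdown replicate 1 it was 0.24 and not called (edgeR adjusted p = 0.228), and it was not called without control replicate 1 or 2 (0.52 and 0.48, edgeR adjusted p = 0.164 and 0.207). PLEC, the plakin that binds ITGB4, was not called (log2 fold change 0.24, edgeR adjusted p = 0.277), nor was the tetraspanin gene CD151 (0.08, edgeR adjusted p = 0.654).

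Of 7 tested latent TGF-beta genes, 2 rose, a share of 28.6% that was near that of all tested genes. These were LTBP3 (log2 fold change 0.88, edgeR adjusted p = 0.00036) and LTBP2 (1.17, edgeR adjusted p = 0.00229), which encode proteins that hold latent TGF-beta in the matrix. TGFB1, whose latent form is a ligand of ITGAV pairs, was not called (0.32, edgeR adjusted p = 0.0585). LTBP2 was not called without control replicate 1 or without control replicate 2 (0.99 and 1.34, edgeR adjusted p = 0.0931 and 0.0526). Of 5 tested ligands of leukocyte integrins, ICAM3 fell (log2 fold change -0.70, edgeR adjusted p = 0.0463), with 75.4% of its exon bases shared with other genes. ICAM3 was not called without either control (-0.55 and -0.89, edgeR adjusted p = 0.343 and 0.129), without RALY knockdown replicate 1 (-0.63, edgeR adjusted p = 0.058) or by DESeq2 (DESeq2 adjusted p = 0.0911).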

How the data were processed

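The authors' deposited tables hold whole-number counts of reads per Ensembl gene, with each gene's exons and length beside them, per the file headers. HISAT2 2.0.4, SAMtools, featureCounts and Subread and build GRCh38 are named, without roles, per the submitters' processing notes. The sources used here do not give settings, use of strand or treatment of duplicates. Gene names and canonical transcript lengths, the lengths from GENCODE, were found for 58472 of 58884 genes. Promoters came from RefSeq (GRCh38.p14). Genes were filtered with filterByExpr and scaled with TMM factors, and 19686 were tested with edgeR 4.0.16 in R 4.3.3 (robust quasi-likelihood F test, group as the only term, Benjamini-Hochberg adjustment over all tested genes). The SE is the size of the log2 fold change divided by the square root of F. DESeq2 1.42.0 was an alternative. The procedure was tested on simulated data. Totals of 13360007 to 16847520 counts set the precision, and limits for a count of 0 cover counting error only. All 4 libraries entered the main test. The rule for named genes took RALY, all 37 integrin and laminin genes and, of each other list, the called genes of lowest p, at most 4 from the direction with more calls and at most 2 from the opposite one; a gene outside it is marked as chosen after its values were seen. Alternatives were other scalings and filters, DESeq2, a minimum fold, ceiling-corrected counts, the replicate block and each library left out. The set, the lists and the tests were chosen with earlier results of these data known. The replicate number was not taken as a pairing, since no label says what it marks. The partner pairs were completed after the values of the first ones were seen.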

Additional observations from a re-analysis of the deposited data

How the results depend on the processing

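Alternatives were other scalings, DESeq2, other filters, the replicate block, a minimum fold of 1.2, ceiling-corrected counts and each library left out. Leaving out 1 library gave 984 to 6259 calls over all genes, 340 to 2908 higher and 508 to 3351 lower, and 2 to 16 called integrin and laminin genes, 1 to 13 higher and 1 to 3 lower. With a minimum fold of 1.2 there were 3084 calls, 1480 higher and 1604 lower, of which 8 were in the set, 6 of them higher. With the replicate block there were 7054 calls over all genes and 16 in the set, ITGA3 (0.36, edgeR adjusted p = 0.0121) and LAMB1 (-0.30, edgeR adjusted p = 0.0447), also lower, in addition; deviations of same-numbered libraries correlated at 0.239 across genes, which with 2 pairs does not show that they are paired. Uncalled genes changed sign when 1 library was left out, with log2 fold changes of -0.30 to 0.12 for ITGA2B, -0.090 to 0.20 for ITGB2, -0.16 to 0.25 for ITGB7 and -0.024 to 0.24 for LAMB2. The log2 difference of the integrin alpha to beta ratio was 1.14 with ceiling-corrected counts, 0.93 with canonical lengths and 0.86 to 1.05 without 1 library, alternatives added after seeing the data. The cause of these changes was not tested. Low counts limit ITGA9, ITGA11, ITGB2, ITGB6 and the 8 untested genes.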

Other observations

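A pseudogene beside LAMB2 was lower in RALY knockdown cells while LAMB2 itself was not called. LAMB2P1 (GRCh38 chromosome 3, positions 49140086 to 49160851) had 13 and 7 counts in the RALY knockdown libraries, against 73 and 95 in the control libraries. Its level was 0.641 ± 0.241 CPM in RALY knockdown cells and 5.51 ± 0.0264 CPM in control cells (SD, n = 2 each), 8.45-fold lower in RALY knockdown cells (log2 fold change -3.08, SE 0.368, edgeR adjusted p = 0.000178). None of its exon bases is shared with another gene in the tables. Its likeness to LAMB2 in sequence and the assignment of reads between them were not examined, and it was singled out after its values were seen.

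Without a filter on low counts ITGA4 was called as higher, on 5 and 4 counts in the RALY knockdown libraries and none in the control libraries, so that call rests on few reads.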
